A study of Homo sapiens with 6 samples.

Results

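The 334 members described here are unprocessed pseudogenes: rows of the count table whose annotated biotype was transcribed_unprocessed_pseudogene (230 members) or unprocessed_pseudogene (104 members, called plain unprocessed pseudogenes below). They were chosen by their summed counts, at least 60 reads over the 6 libraries, and lay outside chromosome Y. The whole table had 58735 rows, of which 3531 carried these 2 biotypes and 3287 of those lay outside chromosome Y. Of these, 2078 had no count in any library. The rule kept 230 of 856 transcribed and 104 of 2431 plain rows. Just inside it were DUX4L37 with 60 reads, AC003072.1 and FOLH1B with 61 each, and AL627230.4 and AC138866.1 with 62 each, and no row had 58 or 59.

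An unprocessed pseudogene arises when a stretch of genome carrying a gene is duplicated and the copy loses its coding capacity. It therefore keeps introns and often some promoter sequence, unlike a processed pseudogene, which is a reverse-transcribed messenger RNA inserted elsewhere. Many lie in segmental duplications next to centromeres and telomeres, where copies of one gene can sit on several chromosomes, and the transcribed biotype marks copies for which the annotation holds evidence of transcription. Because a copy resembles its parent gene, a short read can fit more than 1 locus, and counts of near-identical copies are uncertain.

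The libraries came from LN229, an established human glioblastoma cell line. The design had 3 libraries of LN229 with HSD52 overexpression (HSD52_OE) and 3 of LN229 labelled WT (control), with no time, dose, vector or clone given. HSD52 is a noncoding gene, annotated in the table as a processed transcript on chromosome 1. The question was what HSD52 overexpression changes in the RNA of these cells. Whether libraries of a group came from separate cultures is not in the labels, and p-values therefore cover only the variation among these 6 libraries, which may be technical.

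HSD52 itself had 7 to 12 reads per control library and 1252 to 1336 per HSD52_OE library. Library totals were alike, from 17777157 to 18917790 reads, but 22855 to 23545 genes had a read in a control library against 26359 to 26755 in an HSD52_OE library. The control libraries also differed more among themselves, with a chi-square per degree of freedom of 16.7 to 20.5 between pairs against 2.32 to 3.76 between HSD52_OE pairs. VIM (vimentin, 1161 to 1390 CPM) and NES (nestin, 513 to 809 CPM) were abundant in all 6 libraries, while EPCAM, CDH1, ALB and CD3E had at most 1 read. Other markers were less clear or differed between groups. GFAP had 3.15 to 8.06 CPM. EGFR had 45.8 to 57.6 CPM in control and 21.7 to 27.3 in HSD52_OE, and SOX2 87.2 to 97.9 and 117 to 119. The fibroblast markers COL1A1 (33.1 to 103 and 5.33 to 5.64) and LUM (32.4 to 44.4 and 16.5 to 17.4) had reads in both groups, as did the endothelial PECAM1 and VWF.

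Copies of 4 genes, picked for their values, serve as examples. A 90-base stretch of each is shown beside the exon of the parent gene that it resembles. All are GENCODE v29 transcript sequence placed on hg38 and read 5′ to 3′, and capitals mark bases that differ from the parent. Among gap-free windows shared by the most copies, each was chosen with a mean number of differences nearest a preset value. The counts of differences given below therefore do not measure how far the copies have diverged. The HERC2 copies are shown because 2 on chromosome 16 rose from almost no reads while a closer copy on chromosome 15 was abundant in both groups. The stretch lies in exon 35 of HERC2 (chr15:28228320-28228409, minus strand), in HERC2P4 (chr16:32165743-32165832, minus strand), HERC2P5 (chr16:32761792-32761881, plus strand), HERC2P2 (chr15:22547881-22547970, plus strand) and HERC2P9 (chr15:28642373-28642462, plus strand).
HERC2: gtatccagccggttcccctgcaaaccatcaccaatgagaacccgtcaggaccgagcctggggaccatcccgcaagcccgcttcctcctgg
HERC2P4: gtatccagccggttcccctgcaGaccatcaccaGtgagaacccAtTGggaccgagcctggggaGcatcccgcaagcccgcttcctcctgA
HERC2P5: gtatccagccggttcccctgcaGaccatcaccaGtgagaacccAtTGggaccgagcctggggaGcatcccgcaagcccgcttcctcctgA
HERC2P2: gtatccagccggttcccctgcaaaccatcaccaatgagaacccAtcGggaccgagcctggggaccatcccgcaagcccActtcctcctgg
HERC2P9: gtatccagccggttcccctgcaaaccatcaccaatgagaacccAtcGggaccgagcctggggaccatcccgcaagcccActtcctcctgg
HERC2P4 and HERC2P5 each differed from HERC2 at 7 of the 90 bases, and HERC2P2 and HERC2P9 each at 3. The stretch was the same in HERC2P4 and HERC2P5, and the same in HERC2P2 and HERC2P9.

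The FRG1 copies are shown because those on chromosomes 20 and 22 rose and those on chromosome 9 did not pass the test. The stretch lies in exon 3 of FRG1 (chr4:189952168-189952257, plus strand) and in exon 3 of each copy: FRG1BP (chr20:30388459-30388548, plus), FRG1CP (chr20:28591424-28591513, minus), FRG1DP (chr20:29091600-29091689, plus), FRG1EP (chr20:29490877-29490966, minus), FRG1FP (chr22:10950079-10950168, minus), FRG1GP (chr22:12615415-12615504, plus), FRG1HP (chr9:41008887-41008976, plus) and FRG1JP (chr9:63842854-63842943, minus).
FRG1: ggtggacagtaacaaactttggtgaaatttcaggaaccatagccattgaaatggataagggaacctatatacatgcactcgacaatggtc
FRG1BP: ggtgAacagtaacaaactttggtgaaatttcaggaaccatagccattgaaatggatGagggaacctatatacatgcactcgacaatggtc
FRG1CP: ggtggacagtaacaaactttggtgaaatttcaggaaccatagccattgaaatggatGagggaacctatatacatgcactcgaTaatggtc
FRG1DP: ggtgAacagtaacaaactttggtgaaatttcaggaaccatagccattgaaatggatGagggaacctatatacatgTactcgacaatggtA
FRG1EP: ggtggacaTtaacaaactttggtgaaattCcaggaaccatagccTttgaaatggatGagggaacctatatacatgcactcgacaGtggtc
FRG1FP: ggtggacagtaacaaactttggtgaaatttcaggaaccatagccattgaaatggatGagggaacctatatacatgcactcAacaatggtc
FRG1GP: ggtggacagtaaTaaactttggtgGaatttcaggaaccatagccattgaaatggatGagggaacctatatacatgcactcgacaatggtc
FRG1HP: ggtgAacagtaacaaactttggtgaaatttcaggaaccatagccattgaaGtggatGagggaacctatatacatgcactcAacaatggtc
FRG1JP: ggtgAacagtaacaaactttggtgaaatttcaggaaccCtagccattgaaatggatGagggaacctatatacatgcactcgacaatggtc
The 8 copies differed from FRG1 at 2 to 5 of the 90 bases.

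The BMS1 copies (BMS1P4 at chr10:73727294-73727383, minus; BMS1P1 at chr10:46789596-46789685, plus; parent exon 3 at chr10:42785582-42785671, plus) are shown because the copies rose while BMS1 did not pass the test.
BMS1: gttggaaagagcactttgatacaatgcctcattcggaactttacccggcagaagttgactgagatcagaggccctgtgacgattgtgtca
BMS1P4: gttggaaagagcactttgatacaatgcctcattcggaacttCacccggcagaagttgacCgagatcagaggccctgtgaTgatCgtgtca
BMS1P1: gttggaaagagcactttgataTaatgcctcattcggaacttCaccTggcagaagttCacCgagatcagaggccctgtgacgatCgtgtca
BMS1P4 differed from BMS1 at 4 of the 90 bases and BMS1P1 at 6. SMURF2P1 (chr17:30608430-30608519, plus; parent exon 4 at chr17:64593484-64593573, minus) is shown as the copy with the lowest change of ratio to its parent.
SMURF2: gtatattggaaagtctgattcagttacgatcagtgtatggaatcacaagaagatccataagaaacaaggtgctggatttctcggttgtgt
SMURF2P1: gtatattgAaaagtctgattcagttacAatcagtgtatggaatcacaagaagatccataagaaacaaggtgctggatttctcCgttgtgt
SMURF2P1 differed from SMURF2 at 3 of the 90 bases.

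Unprocessed pseudogenes were more often higher than lower in HSD52_OE. All 230 transcribed members passed the filter on low counts: 111 (48.3%) rose and 15 (6.52%) fell at an adjusted p of 0.05 (edgeR's quasi-likelihood test). Their log2 fold changes had a median of 0.50. Of the 104 plain members, 101 passed the filter (AL031432.2, ABHD17AP1 and AC138866.1 did not), and 45 (44.6%) rose and 5 (4.95%) fell; the median was 0.68. Over all 16322 genes tested, 25.0% rose, 25.6% fell and the median was 0.01. With library totals as the only scaling, 5337 of all genes rose and 2933 fell, the median of all genes moved to 0.13, and 175 members rose and 15 fell against 156 and 20. Of 423 processed pseudogenes tested, 71 rose and 78 fell; their median was -0.09, and 0.04 with library totals alone.

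The levels did not overlap between groups, with every HSD52_OE library above every control library, for 117 of 230 transcribed and 46 of 101 plain members. Over all genes tested this held for 29.6%. Every HSD52_OE library was below every control library for 23 transcribed and 6 plain members, against 29.3% of all genes tested. The threshold on summed counts can admit a member through the group where it is high. This applies to 56 members with under 30 control reads, of which 43 were called higher, and to 4 members with under 30 HSD52_OE reads. Among the 274 members with at least 30 reads in each group, 84 of 198 transcribed (42.4%) and 29 of 76 plain members (38.2%) rose, and 14 and 4 fell. Their median log2 fold changes were 0.33 and 0.32.

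**Figure D1:**
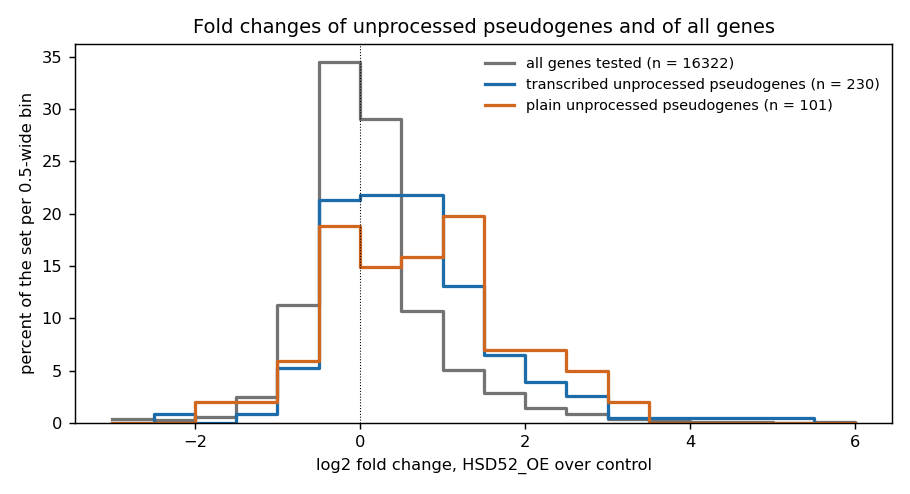
Percent of each set (vertical axis) in bins of log2 fold change 0.5 wide (horizontal axis, HSD52_OE over control) for the 230 transcribed and 101 plain unprocessed pseudogenes tested and all 16322 genes tested; values beyond the axis are drawn in the end bins. Both pseudogene curves lie to the right of the curve of all genes, with medians of 0.50 and 0.68 against 0.01.

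Genes of low level rose more often than abundant ones over the whole table, so the members were set beside genes of the same level. Levels are CPM, reads scaled to library size after TMM scaling, averaged over the 6 libraries. Among members under 1 CPM, 29 of 66 (43.9%) rose, against 39.0% of all other genes at that level. Between 1 and 3 CPM, 57 of 112 members (50.9%) rose against 34.5% of other genes. Between 3 and 10 CPM, 43 of 86 rose, which is 50%, against 30.1%. At 10 CPM or more, 27 of 67 (40.3%) rose against 19.0%, and 3 (4.48%) fell against 34.1%.

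**Figure D2:**
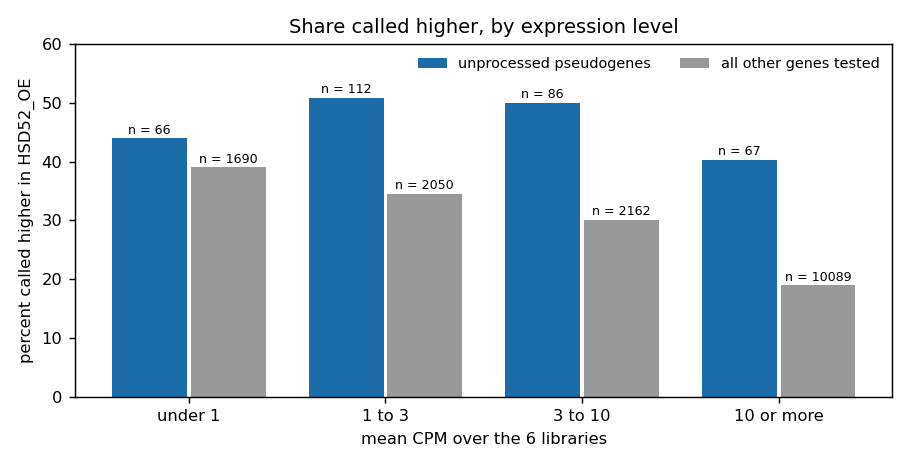
Percent of genes called higher in HSD52_OE (vertical axis, from 0) in 4 ranges of mean CPM (horizontal axis) for unprocessed pseudogenes and for all other genes tested, with the number of genes over each bar. The bars are nearly level under 1 CPM (43.9% and 39.0%) and farthest apart at 10 CPM or more (40.3% and 19.0%).

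Of all reads, the transcribed members took 0.118%, 0.128% and 0.128% in control and 0.182%, 0.178% and 0.170% in HSD52_OE. The mean share was 0.124% ± 0.00592 (SD, n = 3) in control and 0.177% ± 0.00574 (SD, n = 3) in HSD52_OE, a ratio of 1.42. The plain members took 0.0515%, 0.0538% and 0.0581% in control and 0.0803%, 0.0789% and 0.0768% in HSD52_OE, a ratio of 1.44. For both biotypes every HSD52_OE library was above every control library, and the two-sided exact permutation test gave p = 0.1, the smallest that 3 against 3 libraries allow. MTND2P28, MTATP6P1 and AC141557.1 held 43.1% of the plain members' reads, and without them the difference between the groups was 0.0160 percentage points against 0.0242 with them. HERC2P2, FAM86DP and CROCCP2 held 10.7% of the transcribed members' reads.

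More rows of both biotypes were detected in HSD52_OE. Among transcribed rows outside chromosome Y, 353 to 359 had a read in a control library and 419 to 429 in an HSD52_OE library. Among plain rows the numbers were 293 to 324 and 433 to 453. The means were 1.20 times as high in HSD52_OE for transcribed rows and 1.45 times for plain rows, beside 1.15 times for all genes of the table, and whether these differ was not tested. Some other classes of RNA rose as well, although of 423 processed pseudogenes tested 71 rose and 78 fell. Sense intronic transcripts took 0.0210% ± 0.00143 (SD, n = 3) of reads in control and 0.0387% ± 0.00189 (SD, n = 3) in HSD52_OE. Of 9 nuclear-retained long noncoding RNAs tested, 7 rose and 1 fell, and the median was 0.88 on the log2 scale: MALAT1 went from 62.9 to 340 CPM and NEAT1, the scaffold of paraspeckles, from 97.6 to 363 CPM, and OIP5-AS1 fell by 0.26 on the log2 scale, a call lost with library totals alone (adjusted p = 0.268). Over all genes tested 25.0% rose and 25.6% fell. The part of these classes in the members' result was not tested.

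The members that rose most went from a handful of reads to many more. HERC2P4 (ENSG00000230267, chr16:32103245-32188107, minus strand), a copy of the giant ubiquitin ligase gene HERC2 annotated with 24 exons, had 2, 2 and 0 control reads against 73, 63 and 63 HSD52_OE reads. Its level went from 0.0769 ± 0.0666 to 3.47 ± 0.40 CPM (mean ± SD, 3 libraries each), a log2 fold change of 5.39 with a standard error of 0.45 (adjusted p = 2.56e-07). With 4 control reads in all, the ratio of summed reads was 45.6 with an exact 95% interval of 17.5 to 169, which covers counting error only. HERC2P5 (ENSG00000260644, chr16:32741314-32776196, plus strand), under 1 Mb away on the opposite strand, had 0, 2 and 1 reads and then 28, 28 and 39, and was named here for its likeness to HERC2P4 after its values were seen. Neither copy's groups overlapped. Both had under 30 control reads in all, so both could have passed the threshold on summed counts through HSD52_OE. Alignments between HERC2 copies reached 99.6% identity, and how far HERC2P4 and HERC2P5 share reads was not tested. Among the other HERC2 copies, HERC2P9 rose by 0.48, while HERC2P3 (0.29, adjusted p = 0.0504) and HERC2P2 (0.10, adjusted p = 0.327) did not pass the test. With library totals alone all 5 HERC2 copies passed.

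FAR2P1 (ENSG00000180178, chr2:129990456-130051131), named for the fatty acyl-CoA reductase gene FAR2, had 1, 6 and 4 control reads and 91, 82 and 61 HSD52_OE reads, a log2 fold change of 4.25 (SE 0.39, adjusted p = 5.71e-07). Only 4.56% of its transcript aligned to FAR2. CCNYL2 (ENSG00000182632, chr10:42408168-42475349), a cyclin Y-like copy, had 5, 7 and 7 reads and then 67, 80 and 80 (3.43, SE 0.29, adjusted p = 2.69e-07). USP24P1, named for a ubiquitin-specific protease gene, had 3, 0 and 6 reads and then 42, 27 and 39 (3.41, SE 0.52). BMS1P4 (ENSG00000242338, chr10:73715843-73730469), a copy of the ribosome biogenesis gene BMS1, had 8, 6 and 4 reads and then 52, 59 and 48 (2.99, SE 0.34). In each of these the lowest HSD52_OE library was more than 4 times the highest control library. Each also had under 30 control reads in all, so each could have passed the threshold on summed counts through HSD52_OE. The remaining members among the 12 with the highest fold changes at a mean of at least 1 CPM were AC107918.4 (3.84), AL354751.1 (2.95), LINC00993 (2.81), ZNF826P (2.79), MRPS31P5 (2.61), WHAMMP3 (2.61) and ZSCAN12P1 (2.44), and none of their groups overlapped. LINC00993 lies on the same strand as the coding gene ANKRD30A, whose log2 fold change was 3.14, so reads of the pair cannot be told apart by position alone.

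**Figure D3:**
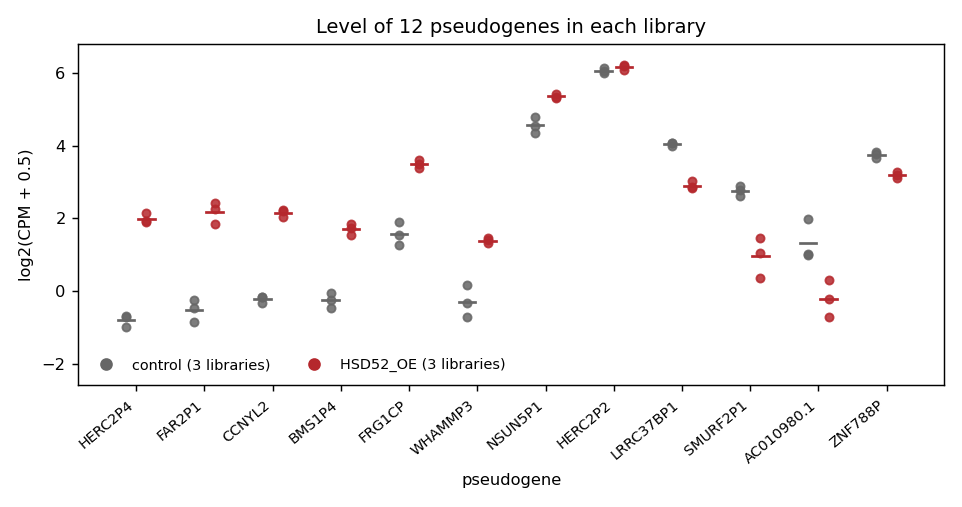
Level of 12 pseudogenes (horizontal axis) in each library as log2(CPM + 0.5) (vertical axis), with 3 control and 3 HSD52_OE points each and a line at the mean. The HSD52_OE points are above every control point for HERC2P4, FAR2P1, CCNYL2, BMS1P4, FRG1CP, WHAMMP3 and NSUN5P1, overlap them for HERC2P2, and are below every control point for LRRC37BP1, SMURF2P1, AC010980.1 and ZNF788P.

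FRG1 is a nuclear protein gene near the end of the long arm of chromosome 4, beside the D4Z4 repeat array whose contraction is linked to facioscapulohumeral muscular dystrophy, and its copies are scattered over centromere-proximal regions. Of 8 FRG1 copies, 6 rose and 2 did not pass the test, a count that was the same under every scaling tried. FRG1CP (ENSG00000282826, chr20:28580709-28602664) had 33, 42 and 58 control reads and 202, 225 and 195 HSD52_OE reads, from 2.51 ± 0.655 to 10.8 ± 0.902 CPM (log2 fold change 2.10, SE 0.19, adjusted p = 3.99e-07). FRG1BP had 28, 21 and 34 reads and then 118, 131 and 171 (2.21), and FRG1DP had 13, 23 and 19 and then 97, 112 and 96 (2.34). FRG1EP, the fourth copy on chromosome 20, went from 11 to 13 reads to 38 to 54 (1.69). On chromosome 22, FRG1GP went from 10 to 13 reads to 55 to 69 (2.30) and FRG1FP from 78 to 141 to 255 to 276 (1.30). All 6 had every HSD52_OE library above every control library.

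The copies on chromosome 9 had other values: FRG1HP had 296, 340 and 410 control and 326, 326 and 346 HSD52_OE reads (-0.19, adjusted p = 0.189), and FRG1JP had 132, 130 and 168 and then 148, 176 and 147 (0.01, adjusted p = 0.969). Their groups overlapped. FRG1HP also overlaps the coding gene CBWD6 on the opposite strand (0.39). These were the 2 copies with the highest mean level in control. FRG1 itself had a log2 fold change of -0.01 (adjusted p = 0.912). The FRG1 copies were 89.4% to 95.1% identical to each other in alignments over at least 50% of a transcript, and none had another gene's transcript at 98% identity or more over 80% of its length.

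Members were grouped into 36 runs of 3 or more neighbours, with starts at most 1 Mb apart. In 8 runs every tested member was called in the same direction, 7 higher and 1 lower. No member was called in 4 runs, members were called in both directions in 3, and in the other 21 some were called, all one way. Of the 158 members tested in runs 77 rose (48.7%), and of the 173 outside runs 79 did (45.7%), against 25.0% of all genes. The runs described next are 6 of those 8, picked after their values were seen, and other genes are counted where they lie wholly inside a run. On chromosome 20, between positions 28580709 and 30399257, all 6 members (FRG1BP, FRG1CP, FRG1DP, FRG1EP, DUX4L35 and DUX4L37) rose, with log2 fold changes of 1.35 to 2.34, as did the 1 other gene tested there (2.28). On chromosome 13, between 18253526 and 19139611, all 5 (GGT4P, AL356585.2, PHF2P2, USP24P1 and CENPIP1) rose by 0.80 to 3.41, while none of the 3 other genes tested there was called. On chromosome 16, between 31700590 and 32776196, CLUHP3 (0.94), HERC2P4 and HERC2P5 rose, as did all 3 coding genes tested in that stretch, at a median of 0.83.

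All 6 members at chr12:9277235-10599669 rose, by 0.86 to 1.88. Among them AC009533.1 (ENSG00000111788) and DDX12P (ENSG00000214826) are close in sequence to the DNA helicase gene DDX11 (97.8% and 98.2% identity of the aligned part). AC009533.1 had 137, 165 and 134 control reads and 426, 450 and 457 HSD52_OE reads (1.49, SE 0.12, adjusted p = 1.82e-07), and DDX12P had 198, 256 and 180 and then 624, 683 and 559 (1.43). Of the 9 other genes tested in that stretch 7 rose and none fell, at a median of 1.37. At chr1:16467436-16770237 all 6 members (CROCCP3, CROCCP2, MST1P2, AL021920.2, ESPNP and MST1L) rose, by 0.41 to 1.89, while neither of the 2 other genes tested there was called; at its edges LINC01772 rose by 1.69 and the coding gene CROCC had -0.14 (adjusted p = 0.482). At chr17:30600796-30790908 the 3 members SMURF2P1, LRRC37BP1 and SUZ12P1 all fell. The readthrough gene SMURF2P1-LRRC37BP1, which overlaps that stretch, fell by 1.69 as well, and reads of it and of its 2 parts cannot be told apart by position alone. The coding gene CRLF3, which also overlaps it, had -0.34 (adjusted p = 0.0598). Of the 8 members tested at chr15:84199311-85234795 2 rose and 3 fell, and none of the 4 tested at chr7:4973988-6753862 was called.

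Position was then described for all members, after the pattern had been seen and therefore with no test. Distance was measured from the largest interval without a gene on each chromosome, which takes in or adjoins the centromere on most chromosomes. Within 5 Mb of it, 47 of 81 members tested (58%) rose and 5 fell, at a median log2 fold change of 0.94. Among all genes tested within 5 Mb, 30.8% rose, at a median of 0.08. Of the plain members, 23 of 32 (71.9%) rose near the interval and none fell, with a median of 1.44, against 22 of 69 (31.9%) farther away, with a median of 0.31. Transcribed members rose about as often near it (24 of 49, 49.0%) as farther away (87 of 181, 48.1%). Whether the shares differ was not tested, and neighbouring copies are not independent.

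**Figure D4:**
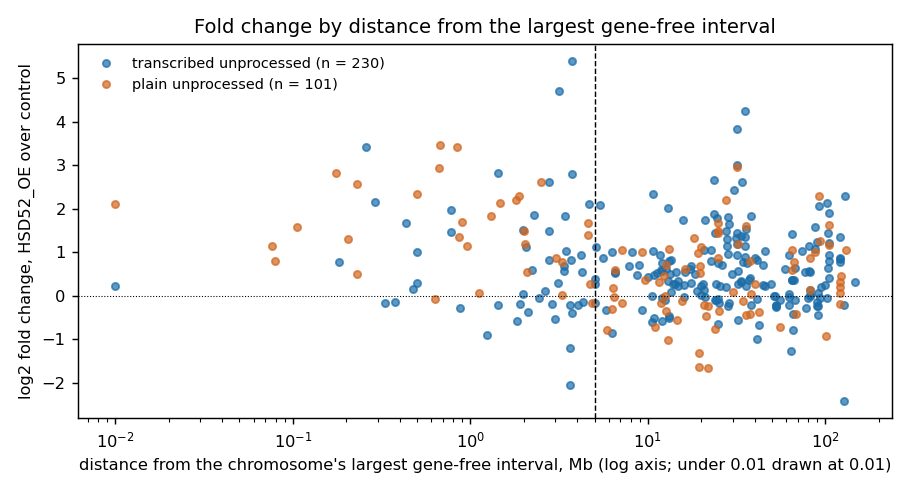
Log2 fold change of each tested member (vertical axis, HSD52_OE over control) against its distance in Mb from the largest gene-free interval of its chromosome (horizontal log axis; distances under 0.01 Mb are drawn at 0.01), with a dashed line at 5 Mb. Left of the line 23 of 32 plain members rose and none fell, and right of it 22 of 69 rose and 5 fell.

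Only 20 members fell (15 transcribed and 5 plain). AC010980.1 (ENSG00000237732, chr2:222318275-222352989) had 26, 61 and 27 control reads and 2, 14 and 7 HSD52_OE reads, from 2.16 ± 1.13 to 0.397 ± 0.312 CPM, and fell by 2.42 on the log2 scale (SE 0.49, adjusted p = 0.000796). With under 30 HSD52_OE reads in all, AC010980.1 could have passed the threshold on summed counts through control. SMURF2P1 (ENSG00000248121, chr17:30600796-30615980), a copy of the ubiquitin ligase gene SMURF2, had 110, 122 and 101 reads and then 42, 15 and 31, and fell by 2.04 (SE 0.27, adjusted p = 1.78e-05). LRRC37BP1 (ENSG00000250462, chr17:30629680-30637466), its neighbour and a copy of LRRC37B, had 279, 288 and 278 reads and then 142, 127 and 133, and fell by 1.20 (SE 0.13, adjusted p = 2.21e-06). The groups did not overlap in any of the 3. In the same stretch SUZ12P1, a copy of the Polycomb gene SUZ12 that overlaps CRLF3 on the opposite strand (-0.34), had 129, 146 and 173 reads and then 132, 123 and 117 and fell by 0.39 (adjusted p = 0.0424); its levels after scaling did not overlap, but the call was lost with library totals alone (adjusted p = 0.172), with DESeq2 (0.0700), with a filter of 1 CPM in 3 libraries (0.0582) and without any of 5 of the 6 libraries (0.0545 to 0.146).

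The other members of the 12 with the lowest fold changes among those whose groups did not overlap were GOLGA2P7, a copy of a Golgi matrix protein gene (-1.26), LINC00674 (-0.98), NBPF2P (-0.91), AC244669.1 (-0.89), LINC00869 (-0.85), AC245297.1 (-0.78), TUBB2BP1, a beta-tubulin copy (-0.71), CA5BP1, a copy of the mitochondrial carbonic anhydrase gene CA5B (-0.66), and SORD2P, a sorbitol dehydrogenase copy (-0.64). ZNF788P, a zinc finger copy, had 235, 215 and 236 control reads and 150, 177 and 171 HSD52_OE reads and fell by 0.59 (adjusted p = 0.00123); it overlaps ZNF20 on the opposite strand, whose log2 fold change was 1.20. Both of the following calls were lost under some settings: TUBB2BP1 reached adjusted p = 0.0755 without HSD52_OE replicate 3 and 0.0585 without control replicate 2, and SORD2P reached 0.152 without HSD52_OE replicate 2, 0.0703 without control replicate 1, 0.0597 without control replicate 2 and 0.0667 with library totals alone.

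The most abundant members are a mixed group. MTND2P28 (ENSG00000225630, chr1:629640-630683) and MTATP6P1 (ENSG00000248527, chr1:633696-634376) are pieces of mitochondrial DNA inserted in chromosome 1, 98.4% and 98.5% identical to MT-ND2 and MT-ATP6. MTND2P28 had 1702, 1577 and 1741 control reads and 2265, 2397 and 2184 HSD52_OE reads and rose by 0.32, with MT-ND2 at 0.16 (adjusted p = 0.203). MTATP6P1 had 1801, 1520 and 2171 and then 1604, 1691 and 1933 (-0.20, adjusted p = 0.139), with MT-ATP6 at -0.12. The mitochondrial genome took 2.99% ± 0.372 (SD, n = 3) of reads in control and 3.45% ± 0.107 (SD, n = 3) in HSD52_OE, and its part in these rows was not tested.

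AC141557.1 (ENSG00000256673, chr12:9398355-9414851), in the chromosome 12 run above, had 887, 1001 and 1151 control reads and 2007, 1980 and 2011 HSD52_OE reads, from 57.5 ± 6.07 to 104 ± 3.17 CPM, and rose by 0.86. FAM86DP, a copy from a methyltransferase family, had 713, 744 and 856 reads and then 1172, 1237 and 1276 (0.55). CROCCP2, a copy of the ciliary rootlet gene CROCC, rose by 0.41, and DPY19L2P2, a copy of the sperm-head gene DPY19L2, rose by 0.83. NSUN5P1 (ENSG00000223705, chr7:75410322-75416787), a copy of the ribosomal RNA methyltransferase gene NSUN5, had 340, 479 and 407 reads and then 735, 810 and 789 and rose by 0.80 (SE 0.11, adjusted p = 3.08e-05). It overlaps the coding gene POM121C on the opposite strand, whose log2 fold change was -0.17. HERC2P2, AC106795.1 (-0.21, adjusted p = 0.144) and AC245060.4 (0.31, adjusted p = 0.0606), the other members among the 10 most abundant, did not pass the test. AC245060.4 passed it with library totals alone (adjusted p = 0.0141), and HERC2P2 did as well (0.0358).

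Copies were also counted by family, beside 25.0% higher and 25.6% lower over all genes tested; differences between families were not tested, and copies of a family share sequence. All 3 BMS1 copies rose (1.11 to 2.99). Of the other families of 3, DUX4 had 2 copies higher, and GOLGA2, GUSB and LRRC37 had 1 each. In NBPF and PCDHB none rose, and 1 copy fell in each of GOLGA2 and NBPF. Of 5 copies of GTF2I, a transcription factor gene of the Williams-Beuren region, 4 rose and GTF2IP1 (0.34) did not pass the test. Of 5 copies of STAG3, the meiotic cohesin subunit gene, 4 rose, led by STAG3L5P (1.83), and STAG3 itself rose by 1.04. DPY19L2 copies rose in 3 of 4 cases beside a rise of 0.76 in DPY19L2. Of 6 copies of SMG1, the kinase gene of nonsense-mediated decay, 3 rose (0.55 to 1.45) beside a rise of 0.33 in SMG1. Near the share of all genes were PMS2, a mismatch repair gene, with 2 of 7 copies higher, the zinc finger (ZNF) pseudogenes, with 3 of 12 higher and 1 lower, and FAM86, with 2 of 7 higher, or 4 with library totals alone. None of the 6 WASH copies, named for an actin nucleation factor, passed the test, with a median of -0.01, although 1 did with library totals alone.

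Of the members, 120 have a symbol that names a coding gene, and for 111 of them both genes passed the filter, with 74 parents. In each library the ratio of the pseudogene to its parent was taken on the log2 scale with 0.5 added to both counts, so that library size cancels. The ratio was above every control library in all HSD52_OE libraries for 58 pairs, below for 9 and overlapping for 44, with a median change of 0.62. Among the 92 pairs whose pseudogene had at least 30 reads in each group, 42 had the ratio above and 9 below. The other pairs could have passed the threshold on summed counts through the group where the pseudogene is high. For processed pseudogenes treated the same way, 19.9% of 246 pairs had the ratio above and 21.5% below, with a median change of -0.05. Of the 19 unprocessed pairs at least 98% identical where aligned, 4 had the ratio above and 3 below. Of the 91 aligned pairs under 98%, 53 were above and 6 below. The aligned part covered a median of 68.3% of the pseudogene's transcript, and whether these shares differ was not tested. Of the 74 parents 11 rose and 27 fell, at a median change of -0.13. With library totals alone 15 parents rose and 16 fell. Of all protein-coding genes tested, 21.4% rose and 30.1% fell, at a median of -0.06. Of those at 10 CPM or more, 18.4% rose and 34.6% fell, at a median of -0.10. Whether the parents differ from these genes was not tested. Among the 55 pseudogenes that rose, the parent rose in 10, fell in 22 and did not pass the test in 23. Across the 111 pairs the fold changes of pseudogene and parent had a Pearson correlation of 0.01 and a Spearman correlation of 0.08, as a description across genes, which are not independent and share parents and libraries.

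**Figure D5:**
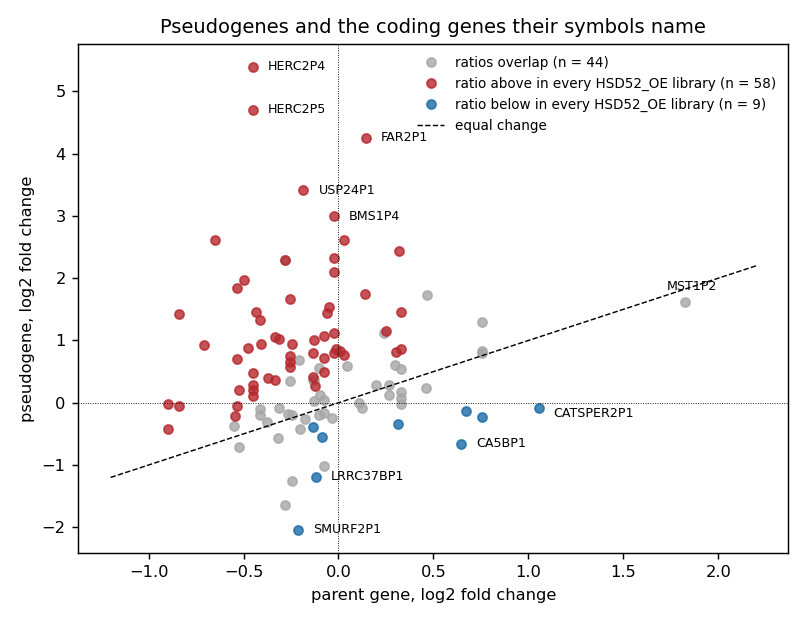
Log2 fold change of each pseudogene (vertical axis) against that of the coding gene its symbol names (horizontal axis) for 111 pairs, coloured by whether the pseudogene-to-parent ratio was above (58), below (9) or overlapping (44) between groups; the dashed line marks equal change. Most points lie above the line, and the highest, HERC2P4 and HERC2P5, lie over a parent that fell by 0.45.

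HERC2P4 had the largest change of ratio, 5.82 on the log2 scale, with log2 ratios of -10.35, -10.12 and -12.24 in control against -4.92, -5.16 and -5.16 in HSD52_OE. Per base of exon, the level of HERC2P4 was 0.148% ± 0.130 of HERC2 in control and 9.84% ± 0.972 in HSD52_OE (SD, n = 3). HERC2 had 3259, 2775 and 2413 control reads and 2221, 2267 and 2262 HSD52_OE reads. No exact test over 3 against 3 libraries can go below p = 0.1, which was its value for every pair whose ratios did not overlap. Among pairs with both genes at a mean of at least 1 CPM, FAR2P1 (4.17), USP24P1 (4.05), WHAMMP3 (3.45), BMS1P4 (2.98), AACSP1 (2.59), MRPS31P5 (2.58), NBEAP1 (2.53), BMS1P1 (2.12) and ZSCAN12P1 (2.09) followed. WHAMMP3, a copy of an actin-nucleating gene, had 5, 11 and 2 control reads and 37, 43 and 42 HSD52_OE reads, while WHAMM had 398, 367 and 427 and then 247, 280 and 302. HERC2P4, FAR2P1, USP24P1, BMS1P4 and WHAMMP3 each had under 30 control reads, so each could have passed the threshold on summed counts through HSD52_OE.

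The lowest change of ratio was that of SMURF2P1, -1.93, while SMURF2 had a log2 fold change of -0.21 (adjusted p = 0.0841). Per base of exon SMURF2P1 stood at 269% ± 37.5 of SMURF2 in control and 75.5% ± 35.3 in HSD52_OE (SD, n = 3). CA5BP1 and CA5B moved in opposite directions: CA5BP1 had 140, 202 and 145 control reads and 119, 109 and 108 HSD52_OE reads, CA5B had 44, 56 and 61 and then 99, 84 and 91 (0.64, adjusted p = 0.0109), and the ratio changed by -1.29. They overlap on the same strand, so some reads could belong to either gene. For CATSPER2P1, a copy of a sperm calcium channel gene, the ratio changed by -1.13 with 31, 45 and 30 reads against 31, 38 and 40, while CATSPER2 rose by 1.05. LRRC37BP1 (-1.05), DPY19L2P3 (-0.98), HSD17B1P1 (-0.75), DPY19L1P1 (-0.66), HNRNPLP2 (-0.47) and SUZ12P1 (-0.25) were the others with ratios below.

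Several copies outnumbered their parents. Per base of exon, 17 of 111 pseudogenes stood above the parent in control and 19 in HSD52_OE, and the median was 12% of the parent in control and 19.9% in HSD52_OE. NSUN5P1 stood at 1540% ± 356 of NSUN5 in control and 2680% ± 525 in HSD52_OE (SD, n = 3), on 13 to 25 NSUN5 reads per library. NSUN5P1 also overlaps POM121C on the opposite strand, and strand cannot separate their reads here. The 5 pairs whose ratio changed least were PKD1P5 with PKD1 (0.01), GOLGA2P10 with GOLGA2 (0.04), MTX1P1 with MTX1 (0.05), DPY19L2P1 with DPY19L2 (0.05) and DPY19L2P2 with DPY19L2 (0.08). The last pair rose together, by 0.83 and 0.76.

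The longest transcript of 80 members was at least 98% identical to a transcript of another gene over at least 80% of its length. Of the 77 of these that were tested 26 rose (33.8%), with a median log2 fold change of 0.26, and of the 254 without such a near copy 130 rose (51.2%), with a median of 0.61, beside 25.0% of all genes. Whether the 2 shares differ, and the part of read sharing in them, was not tested. Some near copies jumped in 1 library. IKBKGP1, 100% identical to a transcript of IKBKG over at least 80% of its length, had 15, 31 and 7 control reads and 241, 14 and 25 HSD52_OE reads. NSFP1 had 12, 12 and 133 and then 30, 10 and 14, STAG3L1 had 260, 79 and 29 and then 85, 114 and 88, and GTF2IP1 had 207, 165 and 487 and then 643, 236 and 293. None of the 4 passed the test, and they were named here after their values were seen. NSUN5P2, which did pass (2.33, adjusted p = 0.0106), had 11, 17 and 17 reads and then 54, 158 and 36, so its size rests largely on 1 library.

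Members also share positions with other genes: 222 of 334 overlap another gene of the table and 64 a coding one, and without strand in the counts reads from opposite strands cannot be told apart. Of the 111 tested members that overlap no other gene, 54 (48.6%) rose and 4 fell. Of the 62 tested that overlap a coding gene, 20 (32.3%) rose and 4 fell. By structure, 11 of 33 members with 1 exon rose (33.3%), 49 of 99 with 2 to 4 exons (49.5%) and 96 of 199 with 5 or more (48.2%). Over all genes 25.0% rose, and the differences between these shares were not tested.

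Genes that act on RNA turnover were described as lists. Of 18 nonsense-mediated decay factors, which degrade transcripts with premature stop codons, 3 rose and 7 fell, at a median log2 fold change of -0.18 (3 and 5, and -0.06, with library totals alone). UPF1, the central helicase of that pathway, fell by 0.88 and SMG1 rose by 0.33. Of 21 genes of the nuclear RNA exosome and its adaptors, 5 rose and 4 fell, at a median of -0.03 (7 and 3, and 0.10, with library totals alone). Of 16 known substrates of nonsense-mediated decay, 6 rose and 4 fell, at a median of 0.10 (8 and 4, and 0.23, with library totals alone). The background of all genes, 25.0% higher and 25.6% lower at a median of 0.01, applies to these lists too, and their part in the members' result was not tested.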

How the data were processed

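RNA of 3 HSD52_OE and 3 control libraries was selected with poly-T beads and sequenced, per the labels' protocols, which describe no strand marking. The authors deposited whole-number read counts per gene in 1 table, and the submitters' processing notes name CASAVA, HISAT2 2.0.5, featureCounts 1.5.0-p3 and hg38; the treatment of reads that fit several loci is not given in the sources used here. Groups came from sample titles. Counts of all genes were filtered with edgeR 4.0.16 (filterByExpr), scaled by TMM and tested with the quasi-likelihood test, two-sided, with Benjamini-Hochberg adjustment over 16322 genes at 0.05; the script was tested on simulated data. DESeq2 1.42.0 and limma 3.58.1 were alternatives, with other scalings, filters and members left out. Transcripts of GENCODE v29, whose gene IDs and biotypes the table shares, were aligned with BLAST+ 2.17.0. Gene lengths are the deposited values. Named members are the 12 highest and 12 lowest fold changes, the 5 smallest p-values per direction and the 10 most abundant (mean of at least 1 CPM, no overlap between groups for the fold changes), plus the pairs with the largest and smallest ratio changes. Members and lists were chosen with earlier results of these data known. The labels do not say that replicate numbers pair libraries, so the numbers were not used as pairs in the main test. After group means were removed, same-numbered libraries correlated by 0.0307 to 0.0383 and differently numbered ones by -0.0218 to -0.0127.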

Additional observations from a re-analysis of the deposited data

How the results depend on the processing

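Of 156 members called higher, 156 were called higher with RLE size factors or library totals alone, 149 with limma-voom, 139 with DESeq2 and 139 with a filter of 1 CPM in 3 libraries; of 20 called lower, 20 were with RLE, 15 with library totals, 20 with limma-voom, 17 with DESeq2 and 17 with the 1 CPM filter. Leaving out 1 library gave 89 to 105 transcribed members higher and 10 to 15 lower, and 34 to 42 plain members higher and 5 to 6 lower. Over all genes tested in these fits 3373 to 4303 rose and 3313 to 4529 fell, against 4086 and 4173. The share differences were 0.0487 to 0.0553 and 0.0227 to 0.0260 percentage points. The ratio was above in 59 to 65 pairs and below in 10 to 13. With a library left out these pair counts could only stay or grow, so they do not test the result. With the replicate number as a block (replicate block), 112 transcribed members rose and 15 fell, and 49 plain members rose and 5 fell; each library correlated best with the library of its own number, at 0.0307 to 0.0383. Smaller sets of members gave smaller counts: with 300 or more reads, 60 of 129 transcribed and 14 of 34 plain members rose, 2 plain members fell, the median log2 fold changes were 0.29 and 0.32 (against 0.50 and 0.68), and the share differences were 0.0432 and 0.0204 percentage points. Among members overlapping no other gene, 28 of 57 transcribed (49.1%) and 26 of 54 plain members (48.1%) rose, and 1 and 3 fell. Over all genes tested 25.0% rose and 25.6% fell. The share differences of the members overlapping no other gene were 0.0146 and 0.0128, and of their 33 pairs 17 had the ratio above and 1 below. With 1 pair per parent, 34 of 74 had the ratio above. Other sets were added after seeing the data. Farther than 5 Mb from the gene-free interval 22 of 69 plain members rose (31.9% against 44.6%) and the share differences were 0.0415 and 0.0184. With 30 or more reads in each group 29 of 76 plain members rose. Without the 3 members with most counts the plain share difference was 0.0160. Leaving aside the pair counts with 1 library left out, none of these results changed direction under these settings. Changes in members near 1 CPM rest on few reads.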
